A study of Homo sapiens with 8 samples.

Results

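Proteasome subunit genes were described in DU145, a human prostate cancer cell line, across the 4 groups of the study, Mock, FGF19, TNFα and FGF19 + TNFα. The members are the genes whose platform symbol is PSMA, PSMB, PSMC, PSMD, PSME, PSMF or PSMG with a number, and each was read at its brightest probeset. There were 45 such genes, on 51 probesets, among 18417 genes with 1 symbol and 33297 probesets. PSMC5, PSMD7 and PSMD13 were not analysed here. All groups were kept in medium without serum from the day before treatment. By the labels, cells were given 50 ng/ml FGF19 with 100 µg/ml heparin for 100 min, or 50 ng/ml TNFα for 90 min, or FGF19 with heparin for 10 min and then also TNFα for 90 min, or nothing (Mock), while the study's methods give lower concentrations of heparin and TNFα. The growth factor FGF19 acts through its receptor FGFR4, and the cytokine TNFα activates NFκB. Heparin is named only for the groups given FGF19, so that an effect of FGF19 and one of heparin cannot be told apart. Each group had 2 arrays, which the labels call biological replicates of this 1 cell line.

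The proteasome is the protease that degrades proteins tagged with ubiquitin. Its core is a stack of rings of α subunits (PSMA) and β subunits (PSMB), of which PSMB5, PSMB6 and PSMB7 carry the catalytic sites, and its regulatory particle has a base with the ATPases (PSMC) and a lid (most PSMD). In the immunoproteasome PSMB8, PSMB9 and PSMB10, genes known to be induced by interferon, take the place of PSMB5, PSMB6 and PSMB7. The proteasome also degrades the NFκB inhibitor IκB after TNFα has been given, which is how it enters the pathway that this study addressed.

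The unit throughout is PLIER signal on a linear scale, and differences are on the log2 scale. Median signal per array ran from 99.5 to 106.6, and arrays of 1 group correlated at 0.967 to 0.980 in log2 signal over all probesets. All 45 members lay above the 20th percentile of every array (30.7 to 36.6). The epithelial markers KRT8, KRT18, KRT19, EPCAM and CDH1 were all present, and none of the 7 markers of other cell types was at 0. Among the latter, DCN (14.16 to 23.51) and PTPRC (13.69 to 29.73) lay below the 20th percentile of every array. CD3E, at 34.66 to 62.93, was dim as well and lay below the median of every array. COL1A2 (52.72 to 67.82) and PECAM1 (54.45 to 75.81) lay between the 20th percentile and the median. CD68, in contrast, lay above the median of every array (197.09 to 295.31). COL1A1 (102.15 to 125.43) lay above the median of every array but FGF19 replicate 2. The summed signal of the 5 epithelial markers was 9310.2 to 9689 in Mock, 6437 to 7118 with FGF19, 8663 to 8734 with TNFα and 6784 to 6947 with FGF19 + TNFα. That of the markers of other cell types was 582 to 587, 537 to 549, 578 to 603 and 576, in the same order of groups. KRT8 and KRT19 were called lower and CD3E higher with FGF19 in both comparisons, against Mock and against TNFα. CD68 was called lower against Mock only, and CDH1 was called higher against TNFα only (limma adjusted p = 0.0355, and 0.102 against Mock). The part of these shifts in the results was not tested. An array averages over all cells of a dish, so that less RNA per cell and fewer cells with the RNA cannot be told apart.

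Most proteasome genes were lower in the cells given FGF19. Against Mock, 27 of the 45 members fell and 2 rose at an adjusted p under 0.05 from limma, where 14.1% of all probesets fell and 18.2% rose. The falls ran from 1.28-fold to 2.99-fold, and that of PSMB5, a catalytic β subunit, came first, followed by PSMA5, PSMG3, PSMB8 and PSMB9. The members that rose were PSME4 and PSMD5. The median log2 difference of the 45 was -0.45, beside 0.08 over all probesets, and 38 of 45 lay below 0.

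With TNFα present the picture was much alike. Against TNFα alone, 22 of the 45 members fell with FGF19 + TNFα and 3 rose (PSME4, PSMD5 and PSMC2), where 12.9% of all probesets fell and 19.4% rose. The median was -0.32, beside 0.10 over all probesets, and 37 of 45 lay below 0. These comparisons share no array. In both, 22 members were called lower and 2 higher, none was called in opposite directions, and 42 of 45 had the same sign. Of all 33297 probesets, 3612 were called lower in both and 4648 higher, 14 were called in opposite directions, and 27006 had the same sign. Over the 45 members the 2 sets of differences had a Pearson r of 0.976 and a Spearman rho of 0.962, and over all 33297 probesets 0.644 and 0.779. The latter include the dimmest probesets, while all 45 members lay above the 20th percentile of every array. The part of signal level in this gap was not tested. The 4 arrays given FGF19 lay wholly below the 4 not given it for 32 members, and wholly above for 4 (PSMC2, PSMD1, PSMD5 and PSME4). Over all probesets these shares were 18.4% and 25.5%. By the F test for any difference among the 4 groups, at an adjusted p under 0.015, 20 of the 45 members differed, where 20.9% of all probesets did.

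**Figure D1:**
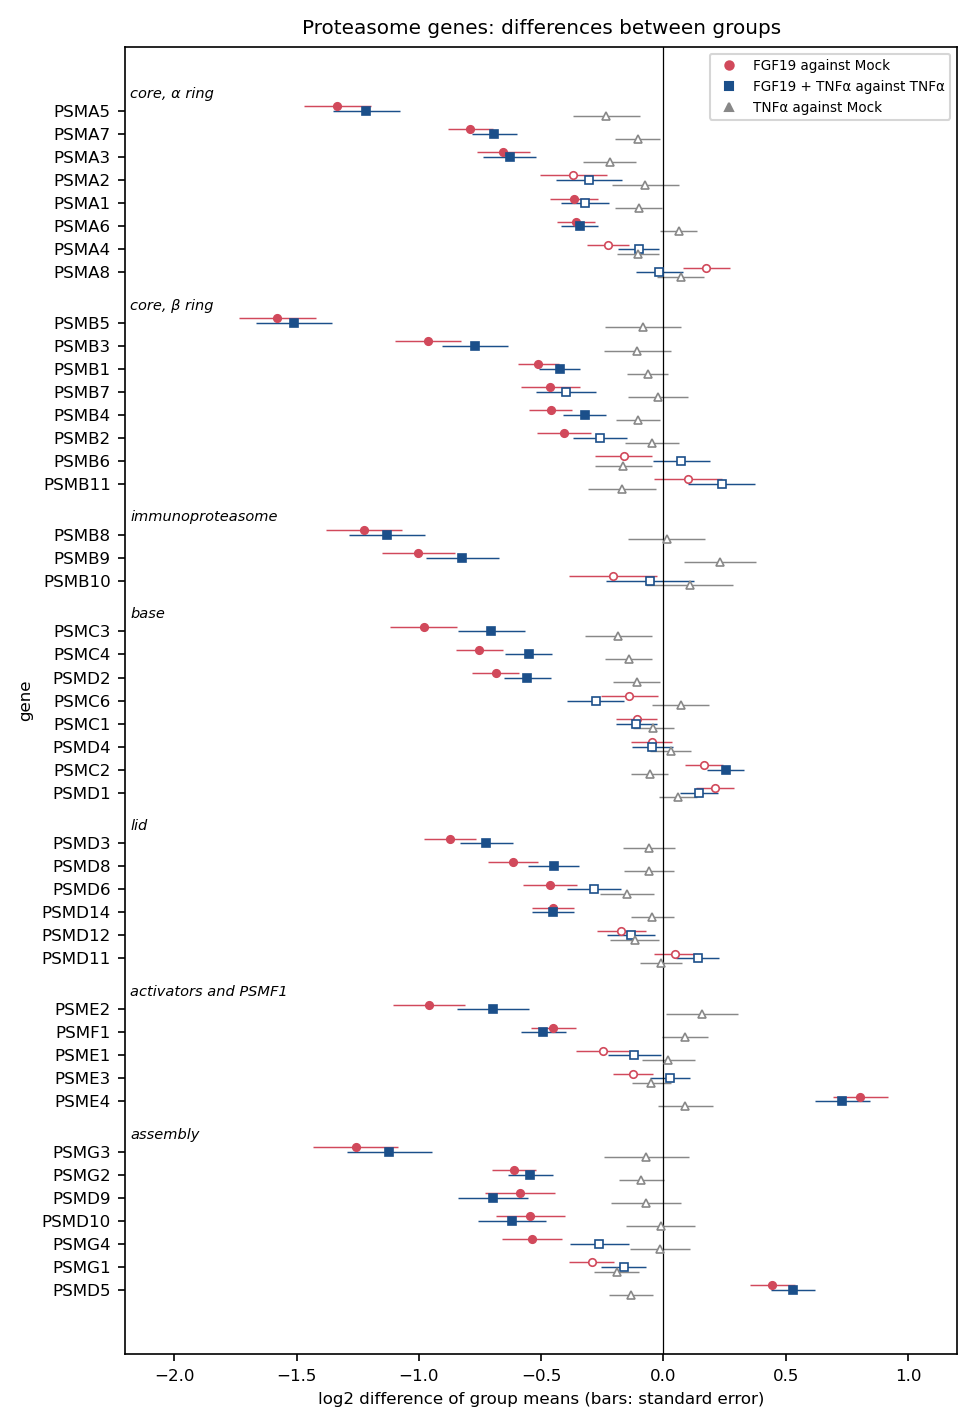
Log2 difference of group means with its standard error for each of the 45 proteasome genes, grouped by part of the complex, for FGF19 against Mock (circles), FGF19 + TNFα against TNFα (squares) and TNFα against Mock (triangles), with 2 arrays per group. Filled symbols were called at an adjusted p under 0.05; 27 and 22 were called lower in the comparisons of FGF19, and no triangle is filled.

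The counts of calls moved when single arrays were left out. In the fits named here, the shares of all probesets called lower in the comparisons of FGF19 fell as well. The median difference of the members against Mock was -0.438 without either Mock array, beside -0.451 with all arrays. Against TNFα it was -0.355, -0.331 and -0.351 without TNFα replicate 1, TNFα replicate 2 and FGF19 + TNFα replicate 2, beside -0.321. Without Mock replicate 1, 16 members were called lower against Mock, and 1 was called higher when either Mock array was left out. Without TNFα replicate 1, TNFα replicate 2 or FGF19 + TNFα replicate 2, 14, 10 and 7 were called lower against TNFα. The F test called 2 when either Mock array was left out, 4 and 5 without TNFα replicates 1 and 2, and 7 and 5 without FGF19 + TNFα replicates 1 and 2. Of the 29 calls against Mock, 17 held in every setting tried, and of the 25 against TNFα, 9 did. The 9 were PSMA5, PSMA7, PSMB3, PSMB5, PSMB8, PSMD3, PSMD5, PSME4 and PSMG3.

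Sequence upstream of the start was compared for the genes that RefSeq promoter windows (GRCh38.p14) name, which were 39 of the 45, with 47 windows. Each window was searched over its 250 bases before the start, on both strands. The antioxidant response element core TGACNNNGC, where N is any base, is the kind of site bound by NFE2L1 and NFE2L2. It stood in 12 of the 47 windows (25.5%), beside 10.9% of all 35116 windows, in 6 genes called lower with FGF19 against Mock, 2 called higher (PSMD5 and PSME4) and 4 called neither. The CCAAT box (CCAAT), bound by NFY, stood in 36.2% of the windows beside 32.0% of all, in 11 lower genes and 6 called neither. The interferon-stimulated response element core, GAAA and GAAA with 2 bases of any kind between them, stood in 5 windows (10.6%, beside 3.02%), those of PSMB4, PSME2 and PSMG4, which were lower, and of PSMA4 and PSMB10, called neither. The κB consensus stood in 2 windows (4.26%, beside 9.96%), those of PSMA4 and PSMA8, and neither was called. A match is a description of the letters and not a site. Median GC was 60.8% in the 23 lower genes with a window and 62.2% in the other 16. Below are the 250 bases before the start of 5 genes, chosen after their values were seen because they include members that fell (PSMA5, PSMB9, PSME2) and those that rose (PSME4, PSMD5). Each is written 5′ to 3′ on the strand of its gene with the motifs in capitals. They are the CCAAT boxes of PSMA5, the CCAAT box and then the antioxidant core (read on the other strand) of PSMB9, the antioxidant core and then the interferon core of PSME2, and the antioxidant core of PSME4 (read on the other strand) and of PSMD5. The windows lie at chr1:109426449-109426698 (minus strand), chr6:32853942-32854191 (plus strand), chr14:24146611-24146860 (minus strand), chr2:53970994-53971243 (minus strand) and chr9:120842923-120843172 (minus strand).
PSMA5: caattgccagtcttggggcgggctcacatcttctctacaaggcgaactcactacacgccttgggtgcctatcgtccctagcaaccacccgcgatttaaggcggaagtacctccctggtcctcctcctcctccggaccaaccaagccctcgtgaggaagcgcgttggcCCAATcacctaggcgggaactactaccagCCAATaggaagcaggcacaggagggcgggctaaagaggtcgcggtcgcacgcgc
PSMB9: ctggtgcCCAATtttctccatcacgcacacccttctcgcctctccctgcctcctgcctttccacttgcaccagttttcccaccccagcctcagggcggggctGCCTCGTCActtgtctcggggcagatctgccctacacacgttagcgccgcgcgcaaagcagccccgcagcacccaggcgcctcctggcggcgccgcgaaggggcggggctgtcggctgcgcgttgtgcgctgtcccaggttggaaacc
PSME2: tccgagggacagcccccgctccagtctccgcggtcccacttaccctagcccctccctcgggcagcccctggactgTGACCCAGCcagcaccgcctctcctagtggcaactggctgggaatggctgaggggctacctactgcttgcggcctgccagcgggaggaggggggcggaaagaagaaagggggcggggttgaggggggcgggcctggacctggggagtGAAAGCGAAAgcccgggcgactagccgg
PSME4: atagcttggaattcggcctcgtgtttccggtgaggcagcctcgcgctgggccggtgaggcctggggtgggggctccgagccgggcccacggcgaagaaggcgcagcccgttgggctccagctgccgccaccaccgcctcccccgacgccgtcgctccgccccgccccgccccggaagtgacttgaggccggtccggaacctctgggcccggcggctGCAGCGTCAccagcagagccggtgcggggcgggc
PSMD5: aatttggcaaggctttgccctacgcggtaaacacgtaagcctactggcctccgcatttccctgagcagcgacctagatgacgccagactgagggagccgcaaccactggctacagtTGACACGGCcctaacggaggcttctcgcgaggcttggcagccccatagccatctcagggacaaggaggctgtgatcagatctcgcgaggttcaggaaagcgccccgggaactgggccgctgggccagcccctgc

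Among the catalytic β subunits, PSMB5 fell most and PSMB6 was not called. PSMB5, which carries the chymotrypsin-like site, had a signal of 506 and 567 for the Mock arrays, 153 and 210.2 for FGF19, 506 and 505 for TNFα, and 178 and 177 for FGF19 + TNFα. The highest of the 4 arrays given FGF19 lay far below the lowest of the 4 not given it. The fall was 2.99-fold against Mock (log2 difference -1.58 ± 0.16 (SE, n = 2 arrays in each group), limma adjusted p = 0.00277) and 2.85-fold against TNFα (adjusted p = 0.00348 from limma). PSMB7, which carries the trypsin-like site, read 2570.2 and 2951 for the Mock arrays, 1826 and 2190.3 for FGF19, 2667 and 2760.0 for TNFα, and 2099 and 2020.3 for FGF19 + TNFα. Its groups did not overlap either, and the fall against Mock was 1.38-fold (adjusted p = 0.0313 from limma). That call was lost in 10 settings, among them the removal of any 1 of 7 of the 8 arrays (all but FGF19 replicate 2). Against TNFα its difference of -0.40 had an adjusted p that rounded to 0.05 and did not pass. PSMB6, which carries the caspase-like site, gave 2338 and 1955 for the Mock arrays, 1872 and 1949 for FGF19, 1946 and 1871 for TNFα, and 2125 and 1896 for FGF19 + TNFα. These arrays overlapped, and the differences with FGF19 were -0.16 against Mock (95% interval -0.45 to 0.12) and 0.07 against TNFα (-0.21 to 0.36).

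Of the 8 β ring genes outside the immunoproteasome, 6 fell against Mock and 4 against TNFα, and none rose. Among all probesets 14.1% fell and 18.2% rose against Mock, and 12.9% fell and 19.4% rose against TNFα. PSMB3, a structural subunit, had a signal of 2601 and 3019.9 for the Mock arrays, 1390.3 and 1488 for FGF19, 2641 and 2564 for TNFα, and 1704 and 1365 for FGF19 + TNFα. It was lower on every array given FGF19, by 1.95-fold against Mock and 1.71-fold against TNFα (adjusted p = 0.00451 and 0.00925 from limma). For PSMB1, also structural, the values were 1764 and 1827 for the Mock arrays, 1233 and 1288 for FGF19, 1667 and 1767 for TNFα, and 1300.2 and 1258 for FGF19 + TNFα. The fall was 1.42-fold and 1.34-fold, and the second call was lost without TNFα replicate 2 or FGF19 + TNFα replicate 2. PSMB4, another structural subunit, gave 4569 and 4433 for the Mock arrays, 3144 and 3405 for FGF19, 4299 and 4078 for TNFα, and 3437 and 3269.6 for FGF19 + TNFα. It fell 1.38-fold and 1.25-fold. Its first call was lost in 3 settings, among them the removal of either Mock array. Its second was lost in 9, among them the removal of any 1 array other than those given FGF19 alone. PSMB2 fell 1.33-fold against Mock, and its difference of -0.26 against TNFα did not pass. That call was lost in 11 settings, among them quantile normalization and the removal of any 1 array other than FGF19 replicate 2. The thymus gene PSMB11 was dim, with a difference of 0.10 against Mock that changed sign under another scaling.

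In the α ring 5 of 8 genes fell against Mock and 4 against TNFα, where 14.1% and 12.9% of all probesets fell. The medians of the ring were -0.37 and -0.33. PSMA5 stood out in size. Its signal was 1209.6 and 1469.6 for the Mock arrays, 503 and 557 for FGF19, 1103 and 1167 for TNFα, and 531 and 450.4 for FGF19 + TNFα, so that the highest array given FGF19 was well under the lowest not given it. The fall was 2.52-fold against Mock (log2 difference -1.33 ± 0.14 (SE), limma adjusted p = 0.00281) and 2.32-fold against TNFα. PSMA7 read 2076 and 2206 for the Mock arrays, 1172 and 1309 for FGF19, 1987 and 1993 for TNFα, and 1254 and 1209.8 for FGF19 + TNFα. It fell 1.73-fold and 1.62-fold, and no array given FGF19 reached the others. PSMA3 gave 2379.7 and 2832 for the Mock arrays, 1640.2 and 1658 for FGF19, 2219 and 2241 for TNFα, and 1501 and 1385 for FGF19 + TNFα, which is 1.57-fold and 1.55-fold lower, and the call against TNFα was lost without FGF19 + TNFα replicate 2. PSMA1 and PSMA6 were the other members called against Mock, with falls of 1.29-fold and 1.28-fold, and of these PSMA6 was called against TNFα. The call of PSMA1 was lost with quantile normalization, with only the groups compared and when any 1 array other than those of FGF19 + TNFα was left out. Those of PSMA6 were lost with quantile normalization and, against Mock, with only the groups compared or when either Mock array was left out, and, against TNFα, when any 1 of the 4 arrays was. The differences of PSMA2 (-0.37) and PSMA4 (-0.23) against Mock did not pass. PSMA8, a gene of the testis, likewise had a difference of 0.17 that did not pass.

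**Figure D2:**
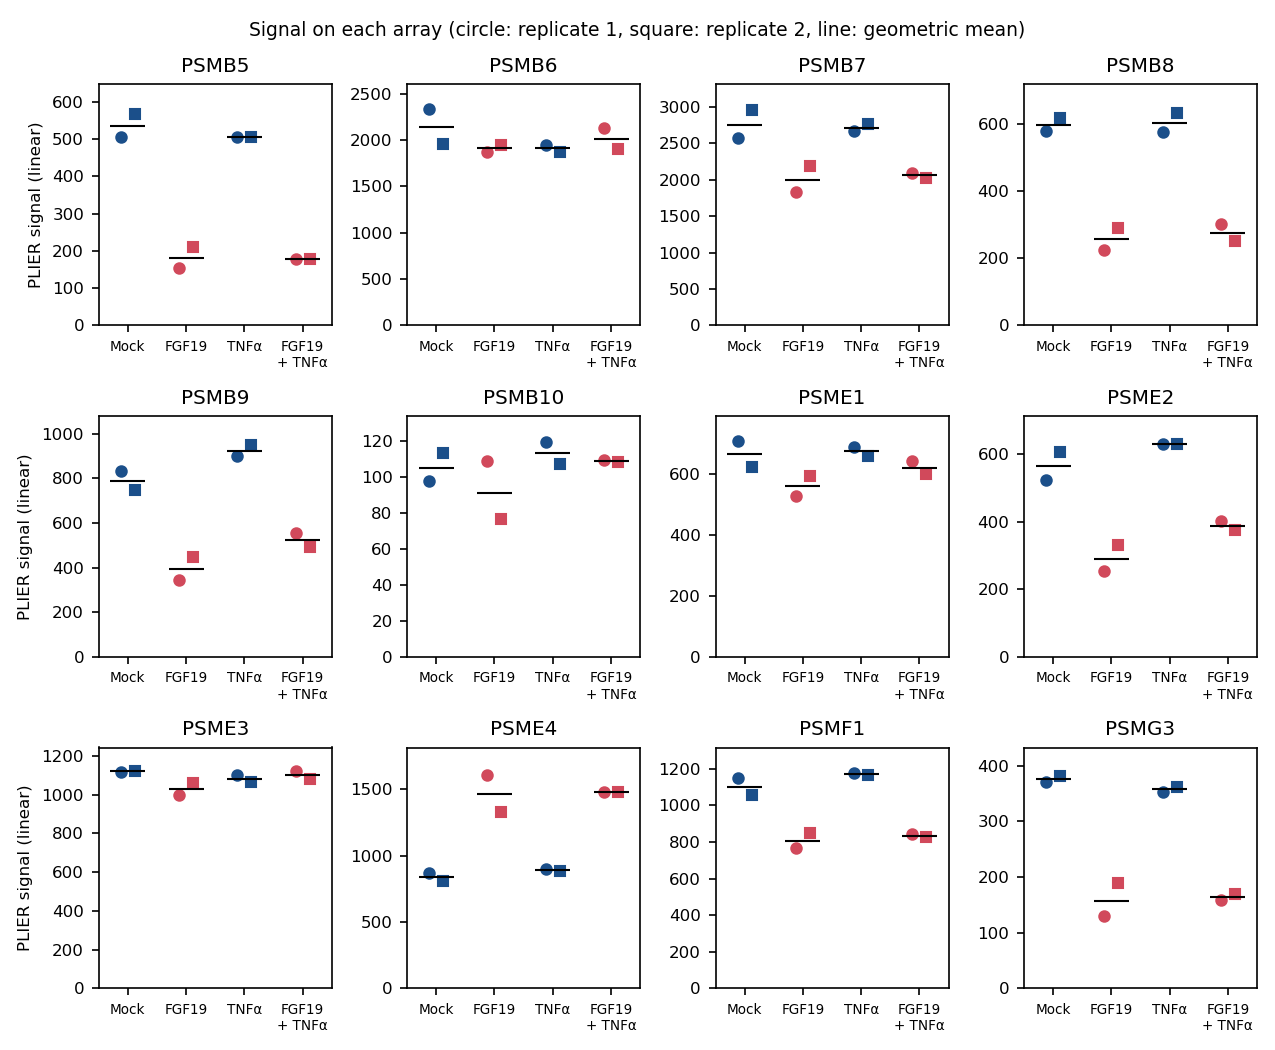
PLIER signal (linear axis from 0) on each of the 8 arrays for the catalytic, immunoproteasome and activator genes, PSMF1 and PSMG3, with the geometric mean of each group as a line and arrays given FGF19 in red. Red points lie wholly below blue ones for PSMB5, PSMB7, PSMB8, PSMB9, PSME2, PSMF1 and PSMG3, wholly above for PSME4, and overlap them for PSMB6, PSMB10, PSME1 and PSME3.

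PSMB8 and PSMB9 were lower with FGF19, and none of the 3 immunoproteasome genes was called with TNFα alone, where 1.06% of all probesets were. PSMB8, which replaces PSMB5, had a signal of 581 and 618 for the Mock arrays, 225 and 292 for FGF19, 577 and 633 for TNFα, and 302 and 252 for FGF19 + TNFα. It fell 2.34-fold against Mock (log2 difference -1.23 ± 0.16 (SE), limma adjusted p = 0.00359) and 2.19-fold against TNFα, with no overlap between arrays given FGF19 and the rest. PSMB9, which replaces PSMB6 and shares its upstream region with the peptide transporter gene TAP1, read 833 and 747 for the Mock arrays, 345 and 449 for FGF19, 899 and 952 for TNFα, and 555 and 493 for FGF19 + TNFα. The arrays given FGF19 were again all lower, and those given FGF19 + TNFα both lay above those given FGF19. PSMB9 fell 2.00-fold against Mock (adjusted p = 0.00505 from limma) and 1.77-fold against TNFα (adjusted p = 0.0099), the latter call being lost without TNFα replicate 2 or FGF19 + TNFα replicate 2. PSMB10, which replaces PSMB7, was dim and gave 97.7 and 113 for the Mock arrays, 109 and 76.5 for FGF19, 119.6 and 107 for TNFα, and 109 and 108 for FGF19 + TNFα. Its arrays overlapped between all groups, and the difference of -0.21 against Mock (95% interval -0.64 to 0.23) did not pass. PSMB8 and PSMB9 each have 3 probesets with identical values on every array, and these were counted once.

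Each immunoproteasome subunit was also set against the subunit it replaces, as the log2 ratio of their signals on the same array less the mean of the Mock arrays. These pairs, and that of PSME2 and PSME1, were taken up after the values had been seen, so that their tests are not independent support. Over the 4 pairs, the exact two-sided permutation test of the 4 arrays given FGF19 against the 4 others gave p = 0.0286, the smallest it can give, for all but PSMB10 over PSMB7 (p = 0.143). With Benjamini-Hochberg adjustment across the 4 pairs, these exact p-values became 0.0381 and 0.143. The ratio of PSMB8 to PSMB5 was 0.04 and -0.04 for Mock, 0.40 and 0.31 for FGF19, 0.03 and 0.17 for TNFα, and 0.60 and 0.35 for FGF19 + TNFα. It was higher on each array given FGF19, by 0.37 on average, both genes having fallen. The ratio of PSMB9 to PSMB6 was -0.05 and 0.05, then -1.0 and -0.68, then 0.33 and 0.46, then -0.50 and -0.50 in the same order. It was lower on each array given FGF19, by 0.87 on average. For PSMB10 over PSMB7 the arrays overlapped, with an average difference of 0.30 and SDs of 0.34 over the arrays given FGF19 and 0.11 over the others.

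**Figure D3:**
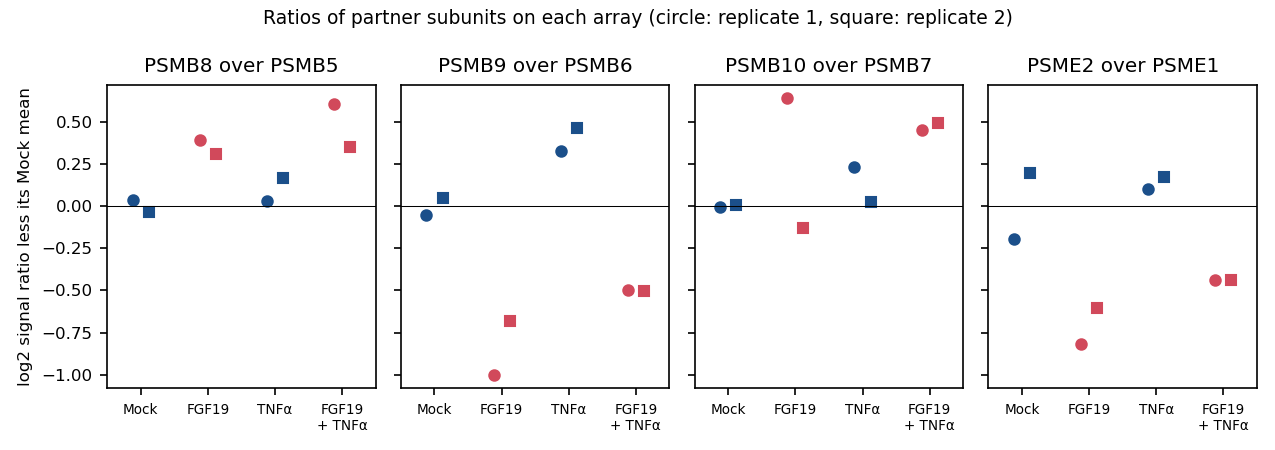
Log2 ratio of the signals of partner subunits on each of the 8 arrays, less the mean of the 2 Mock arrays, with arrays given FGF19 in red. Given FGF19, PSMB8 over PSMB5 was higher by 0.37 on average, PSMB9 over PSMB6 lower by 0.87 and PSME2 over PSME1 lower by 0.64, each without overlap, while the arrays of PSMB10 over PSMB7 overlapped.

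In the base of the regulatory particle 3 of 8 genes fell in both comparisons, where 14.1% and 12.9% of all probesets fell. The median of the base was -0.12 against Mock. PSMC3, an ATPase, had a signal of 1151 and 1195 for the Mock arrays, 518 and 682 for FGF19, 999 and 1065 for TNFα, and 639 and 629 for FGF19 + TNFα. It fell 1.97-fold against Mock (adjusted p = 0.00452 from limma) and 1.63-fold against TNFα, with no overlap. The ATPase PSMC4 gave 1669 and 1659.6 for the Mock arrays, 919 and 1060.2 for FGF19, 1505 and 1513 for TNFα, and 1048 and 1012 for FGF19 + TNFα. For PSMD2, a scaffold of the base, the signal was 1856 and 1847 for the Mock arrays, 1094 and 1209.6 for FGF19, 1762 and 1669 for TNFα, and 1217 and 1118 for FGF19 + TNFα. Both were lower on every array given FGF19, by 1.69-fold and 1.61-fold against Mock and by 1.47-fold and 1.47-fold against TNFα. The calls against TNFα were lost without FGF19 + TNFα replicate 2 for all 3 genes, and also without TNFα replicate 2 for PSMC3 and PSMC4, FGF19 + TNFα replicate 1 for PSMC3 and TNFα replicate 1 for PSMD2. The ATPase PSMC2 went the other way, with a signal of 2312 and 2262 for the Mock arrays, 2526 and 2602 for FGF19, 2200.3 and 2197 for TNFα, and 2581 and 2663 for FGF19 + TNFα. Its arrays given FGF19 were all above the rest. The rise was called against TNFα (1.19-fold, adjusted p = 0.0493 from limma) and not against Mock (0.17, adjusted p = 0.157). That call was lost in 8 settings, among them the removal of any 1 array other than those given FGF19 alone. PSMD1, the other scaffold, had 0.21 and was not called. PSMC1, PSMC6 and PSMD4 had differences between -0.14 and -0.05 against Mock that did not pass, and the second probesets of PSMC1 and PSMC6 were not called either.

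Of the 6 lid genes 4 fell against Mock and 3 against TNFα, where 14.1% and 12.9% of all probesets fell. PSMD3 read 1330.0 and 1284 for the Mock arrays, 657 and 776 for FGF19, 1287 and 1222 for TNFα, and 783 and 737 for FGF19 + TNFα. It was lower on all arrays given FGF19, by 1.83-fold against Mock and 1.65-fold against TNFα (adjusted p = 0.00335 and 0.00562 from limma). PSMD8 gave 1279 and 1331 for the Mock arrays, 806 and 899.8 for FGF19, 1277 and 1228 for TNFα, and 978 and 862 for FGF19 + TNFα. Its fall was 1.53-fold and 1.36-fold, and the second call was lost when either TNFα array or FGF19 + TNFα replicate 2 was left out. PSMD6 read 1588 and 1712 for the Mock arrays, 1089 and 1311 for FGF19, 1474 and 1502 for TNFα, and 1213 and 1228 for FGF19 + TNFα. It fell 1.38-fold against Mock, a call lost in 4 settings, among them the removal of either Mock array or of FGF19 replicate 1. PSMD14, the deubiquitinase of the lid, fell 1.37-fold in both comparisons. Its first call was lost in 3 settings, among them the removal of either Mock array. Its second was lost when any 1 of the 4 arrays of that comparison was left out. PSMD11 and PSMD12 had differences of 0.05 and -0.17 against Mock and were not called.

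The activators, which open the core in place of the regulatory particle, did not move together. PSME2, which forms the interferon-inducible activator with PSME1, had a signal of 525 and 607 for the Mock arrays, 255 and 331 for FGF19, 629 and 629 for TNFα, and 403 and 375 for FGF19 + TNFα. All arrays given FGF19 were lower than the others. It fell 1.94-fold against Mock (log2 difference -0.96 ± 0.15 (SE), limma adjusted p = 0.00557) and 1.62-fold against TNFα (adjusted p = 0.0161), the latter lost without any 1 of the 4 arrays compared. Its partner PSME1 gave 709 and 624 for the Mock arrays, 529 and 593 for FGF19, 690.1 and 659 for TNFα, and 642 and 599.9 for FGF19 + TNFα. The arrays of PSME1 overlapped, and its difference of -0.25 against Mock (95% interval -0.51 to 0.01) did not pass. The ratio of PSME2 to PSME1, scaled as above, was -0.20 and 0.20 for Mock, -0.82 and -0.60 for FGF19, 0.10 and 0.17 for TNFα, and -0.44 on both arrays of FGF19 + TNFα. It was lower on each array given FGF19, by 0.64 on average.

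PSME4, an activator associated with histone turnover, was the member that rose most. Its signal was 869 and 808 for the Mock arrays, 1611 and 1329 for FGF19, 898 and 884 for TNFα, and 1477 and 1481 for FGF19 + TNFα, and every array given FGF19 was above every array not given it. The rise was 1.75-fold against Mock (log2 difference 0.81 ± 0.11 (SE), limma adjusted p = 0.00439) and 1.66-fold against TNFα (adjusted p = 0.00629). PSME3, the nuclear activator, read 1117 and 1123 for the Mock arrays, 997 and 1059 for FGF19, 1099 and 1066 for TNFα, and 1124 and 1081 for FGF19 + TNFα, with arrays that overlapped and differences of -0.12 and 0.03 that did not pass. PSMF1, first described as an inhibitor of the core, gave 1148 and 1058 for the Mock arrays, 765 and 850.3 for FGF19, 1176 and 1167 for TNFα, and 842 and 825 for FGF19 + TNFα. It was lower on all arrays given FGF19, by 1.37-fold and 1.41-fold (adjusted p = 0.0139 and 0.0114 from limma). The first call was lost in 2 settings, among them the removal of Mock replicate 1, and the second when either TNFα array or FGF19 + TNFα replicate 2 was left out.

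Of the 7 assembly genes 5 fell and 1 rose against Mock, and 4 fell and 1 rose against TNFα. Among all probesets 14.1% fell and 18.2% rose against Mock, and 12.9% fell and 19.4% rose against TNFα. The 1 rise in each comparison is no more than about that share. PSMG3, a chaperone of core assembly, had a signal of 371 and 381 for the Mock arrays, 130.3 and 189 for FGF19, 354 and 362 for TNFα, and 159 and 170.2 for FGF19 + TNFα. No array given FGF19 came near the others, and the fall was 2.39-fold against Mock (log2 difference -1.26 ± 0.17 (SE), limma adjusted p = 0.00423) and 2.17-fold against TNFα. PSMG2, which acts on the α ring, gave 1018 and 1071 for the Mock arrays, 649 and 720.2 for FGF19, 978 and 984 for TNFα, and 692 and 654 for FGF19 + TNFα. For PSMD9, a chaperone of the base, it was 259.5 and 259 for the Mock arrays, 150.1 and 198 for FGF19, 248 and 246 for TNFα, and 145 and 160.0 for FGF19 + TNFα. Both were lower on all arrays given FGF19. PSMG2 fell 1.53-fold and 1.46-fold, the second call being lost without FGF19 + TNFα replicate 2. PSMD9 fell 1.5-fold and 1.62-fold. Its first call was lost in 5 settings, among them the removal of either Mock array or of FGF19 replicate 1. Its second was lost when any 1 of the 4 arrays of that comparison was left out. PSMD10, a further chaperone of the base, fell 1.46-fold and 1.54-fold. Its first call was lost with no moderation, with only the groups compared and when any 1 Mock array, any 1 FGF19 + TNFα array or FGF19 replicate 1 was left out, and its second with no moderation and without TNFα replicate 2 or either array of FGF19 + TNFα. PSMG4, another dim gene (76.1 to 121 over the 8 arrays), was called 1.45-fold lower against Mock and did not pass against TNFα. Its call was lost with only the groups compared and without Mock replicate 1 or either FGF19 array. PSMG1 passed in neither (-0.29 and -0.16). PSMD5, another chaperone of the base, rose instead. Its signal was 1366 and 1372 for the Mock arrays, 1947 and 1784 for FGF19, 1248 and 1251 for TNFα, and 1888 and 1719 for FGF19 + TNFα. The arrays given FGF19 were all above the rest, by 1.36-fold against Mock and 1.44-fold against TNFα (adjusted p = 0.0135 and 0.00863 from limma). The first call was lost in 3 settings, among them the removal of either Mock array.

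**Figure D4:**
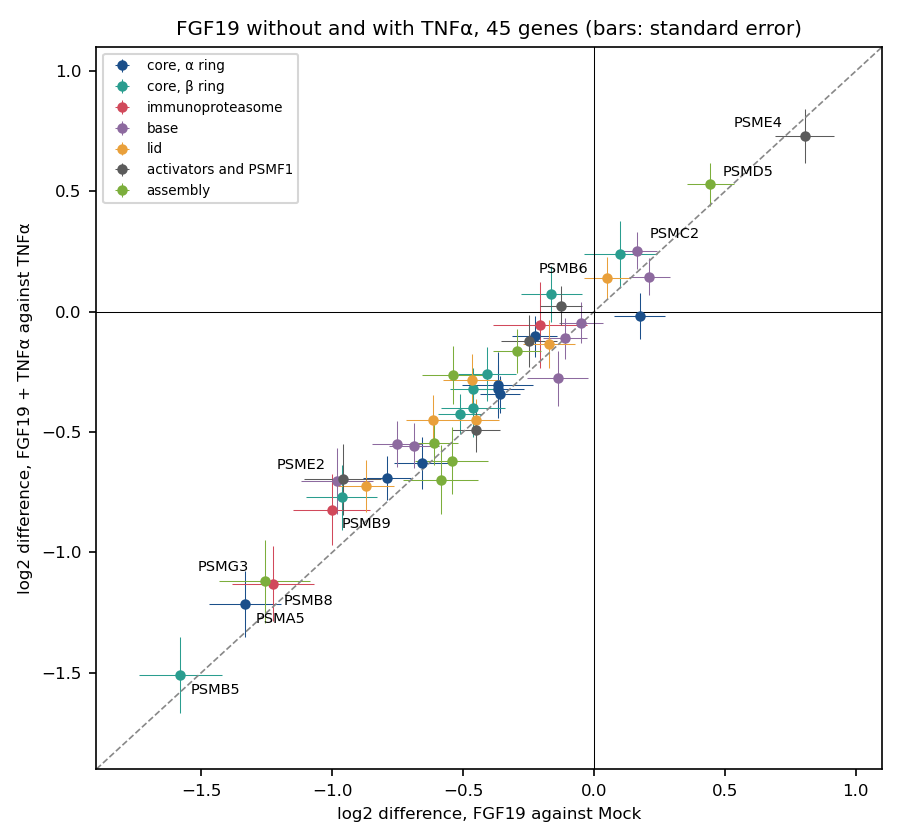
Log2 difference with FGF19 in the absence of TNFα (x axis, FGF19 against Mock) and in its presence (y axis, FGF19 + TNFα against TNFα) for the 45 proteasome genes, coloured by part of the complex, with standard errors and the line of equal values. The 2 comparisons share no array, the Pearson r over the 45 points is 0.976, and PSME4 and PSMD5 stand at the upper right, apart from the members that fell.

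No proteasome gene was called with TNFα alone. Against Mock 0 of 45 members were called by limma, where 1.06% of all probesets were (0.0961% lower and 0.967% higher). That count is near the share over all probesets and cannot be read as particular to the members. In limma 0 members had an unadjusted p under 0.05, and the share of all probesets under it was not counted. The differences ran from -0.23 to 0.23 on the log2 scale, and their 95% intervals reached from -0.57 to 0.59. PSMB9 had the highest value, 0.23 (adjusted p = 0.568 from limma), and PSME2 had 0.16. All 3 immunoproteasome genes had values above 0, between 0.01 and 0.23, and all 8 genes of the β ring had values below 0, between -0.17 and -0.02. All 6 lid genes and all 7 assembly genes lay below 0 as well, as did 33 of the 45 members (30 with quantile and 31 with cyclic loess normalization). In the class of the activators and PSMF1, 1 of 5 genes lay below 0. The median of the members was -0.06, beside -0.035 over all probesets. The share of all probesets below 0 was not counted, so that these counts of signs cannot be read as particular to the members. No member had its 4 arrays given TNFα wholly below or wholly above the other 4, where 1.18% and 2.09% of all probesets did. These counts of 0 are near those shares as well.

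Adding TNFα to FGF19 gave 0 calls among the 45 members, where 0.282% of all probesets were called (0.003% lower and 0.279% higher). The count of 0 is near that share. At an unadjusted p under 0.05 in limma there were 2, PSME2 with a log2 difference of 0.42 and PSMB9 with 0.41 (limma adjusted p = 0.715 and 0.739). A count of 2 in 45 is no more than such a threshold passes on average without any effect. The share of all probesets under it was not counted. The interaction, which asks whether the effect of FGF19 differed with TNFα, was called for 0 of 45 members and 0% of all probesets, and 0 members had an unadjusted p under 0.05 in limma. Its values ran from -0.19 to 0.28, with 95% intervals that reached -0.60 and 0.77.

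The replicates varied in a common direction in some groups. FGF19 replicate 1 was below replicate 2 for 39 of 45 members, and the median size of that gap was 0.15 on the log2 scale. In Mock replicate 1 was below for 31 members, in TNFα for 27 and in FGF19 + TNFα for 10, with median gaps of 0.10, 0.03 and 0.08. Over all probesets the median gaps were larger in each group, 0.19 in FGF19, 0.12 in Mock, 0.12 in TNFα and 0.14 in FGF19 + TNFα. The direction of the gap was not counted over all probesets, so that it cannot be read as particular to the members. The median difference with FGF19 against Mock was -0.37 without FGF19 replicate 1 and -0.53 without FGF19 replicate 2.

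Genes that work with the proteasome were called in both directions. The counts of these short lists are to be read against the shares over all probesets, 14.1% lower and 18.2% higher against Mock and 12.9% and 19.4% against TNFα. Their calls were not rerun with arrays left out. Of 9 subunits and assembly factors with other names, 4 fell and 1 rose against Mock, and 4 fell and 3 rose against TNFα. The ubiquitin receptor ADRM1 had a signal of 922 and 886 for the Mock arrays, 363 and 518 for FGF19, 957 and 947 for TNFα, and 482 and 466 for FGF19 + TNFα. It fell 2.08-fold against Mock and 2.01-fold against TNFα, with no overlap (adjusted p = 0.00582 and 0.00753 from limma). PAAF1, which acts in assembly of the base, fell 1.74-fold against Mock, the lid subunit SEM1 1.38-fold, and POMP, the maturation factor of the core, 1.37-fold. The member that rose against Mock was ECPAS, a scaffold that binds the proteasome (1.24-fold), and those that rose against TNFα were TXNL1, UCHL5 and USP14; these 4 were named after their values were seen.

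All 3 measured genes of ubiquitin and its activating enzymes were called against Mock, where 32.2% of all probesets were, and 2 of 3 against TNFα, where 32.4% were. The ubiquitin gene UBB gave 2613 and 2592 for the Mock arrays, 1167 and 1359 for FGF19, 2497 and 2661 for TNFα, and 1149 and 1212 for FGF19 + TNFα. It was lower on every array given FGF19, by 2.07-fold against Mock and 2.18-fold against TNFα (adjusted p = 0.00277 and 0.00348 from limma). The activating enzyme UBA1 fell 1.26-fold against Mock and UBA6 rose 1.36-fold. Against TNFα UBA1 did not pass (limma adjusted p = 0.0561). Of 7 shuttle factors and parts of the unfoldase, VCP, the unfoldase itself, fell 1.49-fold and UBQLN2 rose 1.34-fold against Mock, and 2 fell and none rose against TNFα. The 1 of 7 in each direction against Mock is no more than about the share over all probesets.

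Of 5 genes that regulate the proteasome or its transcription, 1 fell and 2 rose in both comparisons, the fall being near the share over all probesets. NFE2L1, which induces proteasome genes when the proteasome is inhibited, had a signal of 1057 and 1075 for the Mock arrays, 648 and 764 for FGF19, 1148 and 1124 for TNFα, and 727 and 696 for FGF19 + TNFα. All arrays given FGF19 were lower, by 1.52-fold against Mock and 1.60-fold against TNFα (adjusted p = 0.00774 and 0.00612 from limma). NFE2L2, which acts in the response to oxidative stress, gave 1197 and 1189 for the Mock arrays, 2346 and 2155 for FGF19, 1825 and 1701 for TNFα, and 2738 and 2688 for FGF19 + TNFα. It rose 1.88-fold against Mock and 1.54-fold against TNFα (adjusted p = 0.00276 and 0.00508 from limma), and both arrays given TNFα alone lay above Mock without passing the test (log2 difference 0.56, adjusted p = 0.0536). NFE2L3 rose 1.33-fold against Mock.

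The peptides that the proteasome makes are carried by TAP1 and TAP2 to class I molecules, which hold B2M. Of 6 genes of peptide loading, 3 fell and 1 rose against Mock, and 4 fell and 1 rose against TNFα. Among all probesets 14.1% fell and 18.2% rose against Mock, and 12.9% fell and 19.4% rose against TNFα. The 1 rise in each comparison is no more than about that share. TAP2 gave 679.5 and 600.2 for the Mock arrays, 202 and 303 for FGF19, 704 and 736 for TNFα, and 304 and 306 for FGF19 + TNFα. The signal of B2M was 2820.0 and 2946 for the Mock arrays, 1732 and 1728 for FGF19, 2805 and 2969 for TNFα, and 1730.4 and 1665 for FGF19 + TNFα. Both were lower on every array given FGF19, TAP2 by 2.58-fold and B2M by 1.67-fold against Mock. TAP1 read 795 and 784 for the Mock arrays, 415 and 586 for FGF19, 1289 and 1332 for TNFα, and 871 and 771 for FGF19 + TNFα. It fell 1.60-fold against Mock and 1.60-fold against TNFα, and its difference of 0.73 with TNFα alone had an adjusted p of 0.159 from limma. ERAP1, a peptide-trimming enzyme, rose 1.56-fold with FGF19 against Mock. With TNFα alone 0 of these 6 genes were called, where 1.06% of all probesets were, and 3 had an unadjusted p under 0.05 in limma.

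**Figure D5:**
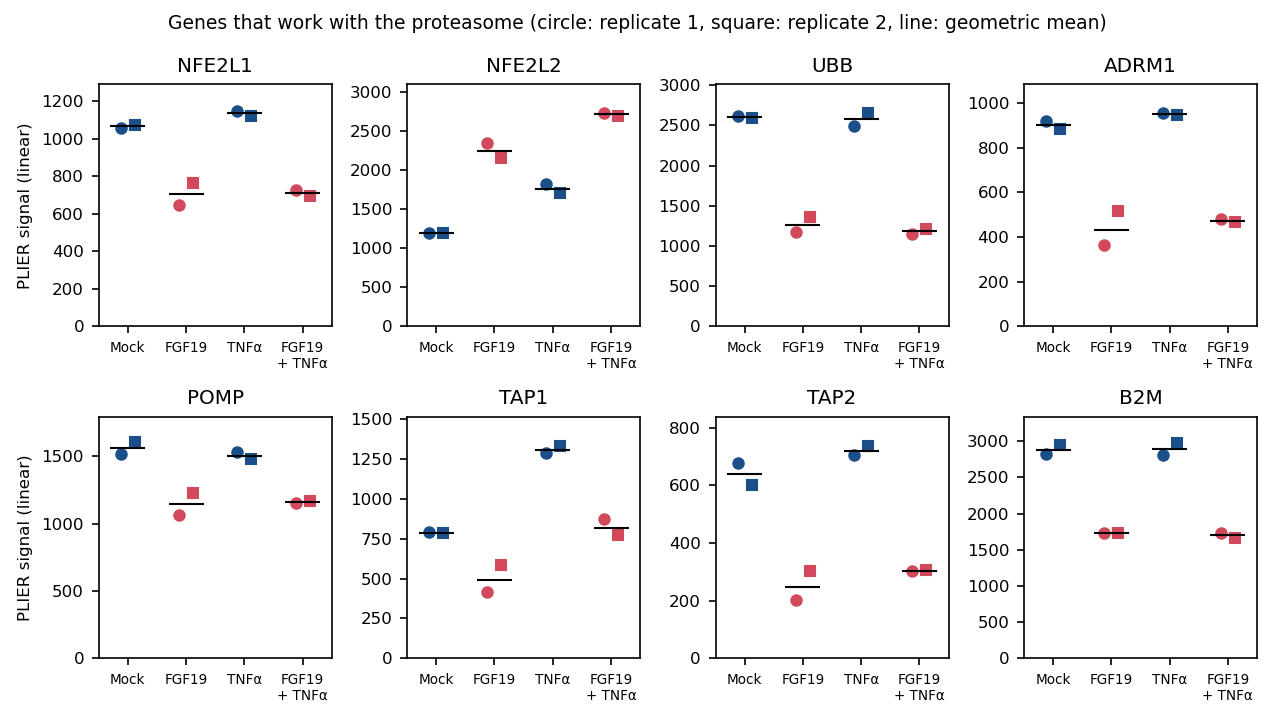
PLIER signal (linear axis from 0) on each of the 8 arrays for 8 genes that work with the proteasome, with the geometric mean of each group as a line and arrays given FGF19 in red. Red points lie below blue ones for NFE2L1, UBB, ADRM1, POMP, TAP2 and B2M and above for NFE2L2, while those of TAP1 with FGF19 + TNFα reach the level of Mock.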

How the data were processed

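RNA of DU145 cells was hybridised to 8 Affymetrix Human Gene ST arrays, 2 per group. The authors deposited linear signal intensity for 33297 probesets, which the submitters' processing notes credit to Affymetrix Expression Console and PLIER. Versions and normalization: not given in the sources used here. Before log2 was taken of the deposited intensity, the 240 zeros were replaced by 0.01, the lowest positive signal of each array. In R 4.3.3, limma 3.58.1 (lmFit, eBayes) was run on the 8 arrays together with 1 mean per group, so that the groups shared 1 estimate of the spread with 4 residual degrees of freedom, and p-values were adjusted over all probesets by the method of Benjamini and Hochberg. Differences were called at 0.05 and the F test at 0.015. Precision is set by the number of arrays, since no count of molecules lies behind a signal. Beyond the words biological replicate nothing says how cultures were kept apart, and p-values measure the spread between these arrays.

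Probesets were named from the platform annotation, with 1 symbol for 19460, several for 1754 and none for 12083, and symbols were updated through Entrez identifiers to RefSeq for 19429. The array's own coordinates were not used. PSME3IP1 and PSMC3IP are not subunits and were left out. Each gene was read at its brightest probeset. The members, gene lists and rules were chosen with earlier results of these data known. Values on every array are given for the catalytic, immunoproteasome, PSME and PSMF genes and, in the other classes, for up to 3 members with the largest difference among those called in FGF19 against Mock, and partner genes called there could be named, at most 4 per list. Values of PSMD5 and PSMC2 and the pairs of subunits were added after the values were seen.

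Promoter windows came from RefSeq. The fit was also run on simulated signal with independent noise for each probeset. Such signal has no shift common to many probesets, so that this run does not test how the fit handles one. Settings tried as alternatives were normalization by quantile or by cyclic loess, an offset of 16, removal of the dimmest 20 percent, unmoderated variances, a prior that was trended and robust, separate fits per comparison, a replicate block, averaged probesets and the removal of 1 array at a time. Figures were drawn with matplotlib 3.10.9.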

Additional observations from a re-analysis of the deposited data

Results flagged for a closer look

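PSME3 was the member whose arrays with and without TNFα lay apart in opposite directions in the absence and presence of FGF19. The share of all probesets with such a pattern was not counted, so that this flag cannot be read as a result about PSME3. Against Mock both TNFα arrays were lower, and against FGF19 both FGF19 + TNFα arrays were higher. The difference between these effects was 0.15 on the log2 scale (0.151), and the interaction did not pass in limma (adjusted p = 0.983).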

How the results depend on the processing

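In FGF19 against Mock, a fit of only the groups compared called 16 members lower and 1 higher in place of 27 and 2, and no moderation of the variances called 4 higher. In the F test, no moderation called 5 in place of 20. Over the fits that left out 1 array each, in which a lone array of a group is assumed to vary like the other groups, the members called lower against Mock were 16 to 26 and those higher 1 to 2, lower against TNFα 7 to 24 and higher 2 to 3, and different in the F test 2 to 20. TNFα against Mock, FGF19 + TNFα against FGF19 and the interaction gave 0 calls among the members in all settings run. Over both comparisons of FGF19, 14 calls were lost in the fit of only the groups compared, 6 with quantile normalization, 5 with no moderation and 3 with the replicate block. No member that was called changed sign under any setting. Members without a call did so, and the cause was not tested. Against Mock, quantile and cyclic loess normalization gave PSMB11 -0.045 and -0.035, and leaving out 1 array gave PSMB10 -0.459 to 0.048 and PSMD11 -0.028 to 0.126. Against TNFα, quantile normalization gave PSMA4 0.004 and PSME3 -0.015, and leaving out 1 array gave PSMA8 -0.08 to 0.045 (0.034 without TNFα replicate 2), PSMB10 -0.134 to 0.024, PSMB6 -0.009 to 0.155, PSMD4 -0.094 to 0.005 and PSME3 -0.002 to 0.054. With quantile normalization the median of all probesets was -0.002 in place of 0.081 against Mock, and that of the members -0.39.

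Same-numbered arrays correlated at -0.02 to 0.20 in their deviations from the group means, the highest being FGF19 with FGF19 + TNFα. With 2 arrays in a group the deviations are equal and opposite, so that this cannot settle whether the replicate numbers pair the arrays. With the replicate block 26 members were called lower and 2 higher against Mock, 22 and 2 against TNFα, and 16 in the F test. The number of arrays limits what can be seen, and for PSMB10, PSMB11 and PSMG4 a dim signal does as well.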
